A study of Mus musculus with 2 samples.

Results

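The 7 genes described here encode the receptors through which liver myeloid cells bind IgG, their partner chain, an Fc receptor-like protein and a chain of the neonatal Fc receptor. They are Fcgr1, Fcgr3 and Fcgr4, which encode the activating Fc gamma receptors of the mouse, Fcgr2b, which encodes the inhibitory Fc gamma receptor, Fcer1g, which encodes the signalling chain shared by the activating receptors, Fcrls, which encodes a secreted Fc receptor-like protein, and Fcgrt, which encodes the heavy chain of the neonatal Fc receptor. They were picked by name, as 7 of the 25909 genes in a matrix of mRNA counts, and all 7 had a row in it.

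The study examined how the transcription factor Egr2 shapes liver macrophages in metabolic dysfunction-associated steatohepatitis (MASH). It compared 4 mice by single-cell RNA sequencing, 1 for each combination of genotype and diet, and male mice of 6 to 12 weeks of age entered the MASH model. The genotypes were Egr2fl/fl, in which both copies of Egr2 are flanked by loxP sites, and Lyz2Cre/+.Egr2fl/fl, which carries in addition 1 copy of a Cre recombinase in the Lyz2 gene. All 4 mice thus had the floxed alleles, and Cre acts wherever Lyz2 is or was expressed, which takes in monocytes, neutrophils and macrophages alike. The diets were a normal diet (ND) and CDA-HFD, a high-fat diet that lacks choline and takes its protein from defined L-amino acids, given for 7 weeks. Liver cells were sorted on CD45.2 and CD11b after cells bearing CD90.2, B220, NK1.1 or SiglecF had been gated out, and each mouse was marked with its own hashtag (A951 to A954) before pooling.

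Each group was a single mouse, so no replicate spread can be given and no p-value is printed, and a difference between groups cannot be told apart from a difference between individual animals. Levels are CPM, the counts of a gene per 1000000 counts of the same cells. Each interval is an exact 95% interval that covers counting error only, and it is too narrow where counts within a cell are not independent molecules, since the sources used here do not say if molecular identifiers were collapsed for the count matrix. The methods name an option for reads without molecular identifiers (-U of velocyto), but for the RNA velocity files only.

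After filtering, 15384 cells remained, 1590 to 6186 per mouse, with 27840300 to 90124521 counts per mouse and a median of 13168 to 16459 counts per cell. No barcode number was shared between mice. Egr2 was at 13.3 CPM in the ND-fed Egr2fl/fl mouse against 5.85 CPM in the ND-fed Lyz2Cre/+.Egr2fl/fl mouse, a ratio of 0.441 (0.366 to 0.530), and at 49.4 against 18.2 CPM on CDA-HFD, a ratio of 0.369 (0.349 to 0.391). Cells were clustered with the 7 genes left out of the clustering, and a cluster was named only where its marker genes were raised. Of 10 Kupffer cell (KC) markers, 10 and 9 were raised in the pair of clusters called KC-like, and 9 of 10 markers of hepatic lipid-associated macrophages (hLAMs) were raised in the hLAM-like cluster. Clusters that did not reach the naming rule are called by their leading genes. Some cells that the gate was meant to exclude were still present, namely 195 T or NK cell-like, 135 endothelial cell-like, 70 B or plasma cell-like and 34 eosinophil-like cells. Of the 305 cells of the interferon-responding-like cluster, 159 came from the ND-fed Egr2fl/fl mouse.

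Fc gamma receptors let phagocytes take up and respond to antibody-coated particles and immune complexes. The activating receptors signal through an immunoreceptor tyrosine-based activation motif (ITAM) carried by the Fcer1g chain, to which Syk family kinases bind, whereas Fcgr2b carries an inhibitory motif (ITIM) in its own tail that recruits the phosphatase Ship1. The balance of the receptor kinds on a cell sets its threshold for a response to IgG. In the liver, KCs clear antibody-coated cells and bacteria from the blood, and sinusoidal endothelial cells are known for taking up small immune complexes through Fcgr2b.

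The coding sequences of the ITAM of Fcer1g and the ITIM of Fcgr2b are shown because the balances given here set activating receptors against Fcgr2b. They were read from GENCODE transcripts of the GRCm38 build, run 5′ to 3′, and have the tyrosine codons in capitals. The Fcer1g stretch covers codons 65 to 79 of 86 and the Fcgr2b stretch covers codons 317 to 322 of 340. Among the 7 transcripts the ITAM pattern matched in Fcer1g alone. The short ITIM pattern, with isoleucine, leucine, valine or serine 2 residues before a tyrosine and isoleucine, leucine or valine 3 residues after it, also matched 3 times in Fcgr1 and 1 time each in Fcgr4, Fcer1g and Fcgrt, so a match by itself does not mark an inhibitory motif.
Fcer1g ITAM: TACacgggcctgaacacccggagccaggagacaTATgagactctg
Fcgr2b ITIM: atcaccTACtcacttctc

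On GRCm38, 4 of the genes lie within a short interval of chromosome 1. Fcgr2b is at chr1:170958617-170976547 on the minus strand, Fcgr4 at chr1:171018920-171029761 on the plus strand, Fcgr3 at chr1:171051174-171064935 on the minus strand and Fcer1g at chr1:171229572-171234365 on the minus strand. Fcrls (chr3:87250758-87263738) and Fcgr1 (chr3:96282909-96293969) lie on the minus strand of chromosome 3, and Fcgrt (chr7:45092990-45103851) lies on the minus strand of chromosome 7. Antisense genes overlap exons of Fcgr2b (Gm38204) and Fcgrt (Gm45669). The sources used here do not state whether counting used the strand, so reads of these partners may not be separable.

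Fcgr2b and Fcgr3 have near-identical coding stretches, so reads could in principle be shared between the inhibitory and an activating receptor. Their transcripts had in common 136 of 3485 windows of 60 bases of Fcgr2b (3.90%) and 136 of 1288 windows of Fcgr3 (10.6%), and the other ordered pairs of members shared none (2 of 42 pairs shared any). The longest identical run had 129 bases.
Fcgr2b and Fcgr3 shared run: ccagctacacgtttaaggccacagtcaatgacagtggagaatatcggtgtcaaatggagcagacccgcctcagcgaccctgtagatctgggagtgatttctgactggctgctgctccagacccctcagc
This run ended 3014 bases before the 3′ end of the Fcgr2b transcript and 906 bases before that of Fcgr3, and 0 of the shared windows lay in the last 500 bases of either, the part that a 3′ library mostly covers.

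Over all sorted cells, CDA-HFD-fed mice had lower levels of the activating receptors and of Fcgrt than ND-fed mice, and higher levels of Fcgr2b and Fcrls. The partner chain Fcer1g was almost level. The same directions were found in both genotypes. These sums mix cell types, and the KC-like cells that made up much of the ND samples were nearly absent on CDA-HFD (763 and 833 cells on ND against 4 and 18 on CDA-HFD).

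Fcgr1 encodes the high-affinity receptor and was at 249 CPM (ND, Egr2fl/fl), 262 CPM (ND, Lyz2Cre/+.Egr2fl/fl), 138 CPM (CDA-HFD, Egr2fl/fl) and 187 CPM (CDA-HFD, Lyz2Cre/+.Egr2fl/fl). In the same order of mice, Fcgr3, a low-affinity activating receptor, was at 669, 618, 371 and 372 CPM. Fcgr4, the activating receptor for IgG2a and IgG2b, was at 559, 551, 179 and 194 CPM. Both CDA-HFD-fed mice lay below both ND-fed mice for all 3 receptors.

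Fcgr2b went the other way, with 103 and 104 CPM on ND against 220 and 248 CPM on CDA-HFD. Fcrls was almost absent on ND, with 0.375 and 0.970 CPM on ND against 9.27 and 8.82 CPM on CDA-HFD. Fcgrt was at 239 and 340 CPM on ND against 56.5 and 68.7 CPM on CDA-HFD. Fcer1g, present in nearly every cell, was at 3393, 3560, 3315 and 3516 CPM.

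The ratio of CPM on CDA-HFD to CPM on ND in the Egr2fl/fl mice was 0.556 (0.540 to 0.572) for Fcgr1, 0.554 (0.544 to 0.563) for Fcgr3 and 0.319 (0.313 to 0.326) for Fcgr4. It was 2.14 (2.06 to 2.22) for Fcgr2b and 0.977 (0.970 to 0.984) for Fcer1g. The Lyz2Cre/+.Egr2fl/fl pair gave 0.711, 0.602, 0.351, 2.39 and 0.987 for the same genes in that order. The median gene stood at 0.909 and 0.904 in these comparisons.

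With a fold of 1.5 as the mark, 2 of the 7 members were higher and 4 lower on CDA-HFD in the Egr2fl/fl mice, where 10.2% and 21.2% of all 14078 genes with at least 100 counts did so. In the Lyz2Cre/+.Egr2fl/fl mice 2 were higher and 3 lower, beside 11.2% and 21.8% of 14197 genes, with Fcgr1 at 0.711 no longer past the mark. Between genotypes, 0 of 6 members with enough counts passed it on ND and 0 of 7 on CDA-HFD, beside 8.02% and 5.19% of genes.

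The ratio of activating receptor counts (Fcgr1, Fcgr3 and Fcgr4 summed) to Fcgr2b counts is called the balance here. Counts of different genes depend on transcript length and capture, so the balance was compared between cells and mice only and is no ratio of molecules. Over all cells it was 14.4 (13.9 to 14.9) and 13.8 (13.3 to 14.4) in the ND-fed mice and 3.13 (3.08 to 3.18) and 3.04 (2.99 to 3.08) in the CDA-HFD-fed mice, with Egr2fl/fl given first.

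These totals came from few cell types. In the ND-fed Egr2fl/fl mouse, KC-like cells were 44.3% of the cells, held 58.7% of all counts, and gave 83.2% of Fcgr1 counts, 78.0% of Fcgr3, 85.7% of Fcgr4, 85.2% of Fcgrt and 65.4% of Fcer1g counts. They gave 4.83% of its Fcgr2b counts. Of the Fcgr2b counts of that mouse, 30.3% came from interferon-responding-like cells, 22.9% from 21 endothelial cell-like cells and 12.3% from Cd209a+ dendritic cell-like cells.

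**Figure D1:**
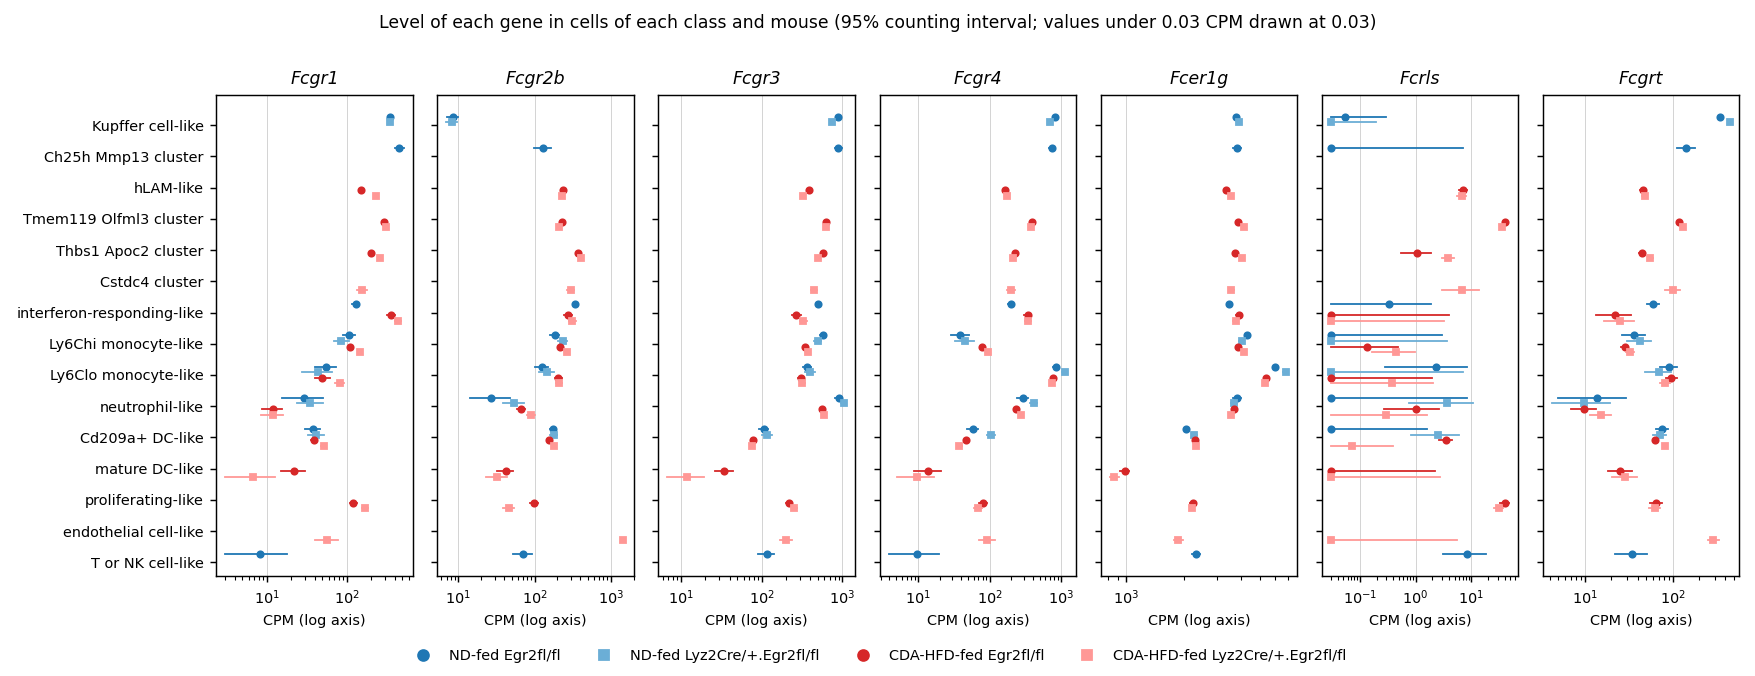
Level of each gene (x axis, CPM on a log axis, 1 panel per gene with its own scale) in 15 cell classes or clusters (rows) of each mouse with at least 50 such cells (colour and symbol), with 95% counting intervals as bars and values under 0.03 CPM drawn at 0.03. Fcgr2b sits near 8 CPM in the KC-like cells of both ND-fed mice and at 1441 CPM in endothelial cell-like cells, while Fcer1g runs from 867 to 6822 CPM.

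By cell type, the activating receptors were all high in KC-like cells and differed in which other myeloid cells were high. Fcgr1 was high in KC-like and interferon-responding-like cells and low in neutrophil-like cells, Fcgr3 was high in KC-like and neutrophil-like cells, and Fcgr4 was high in KC-like and Ly6Clo monocyte-like cells. Cd209a+ and mature dendritic cell-like cells were low for all 3. The clusters were made without the 7 genes but with genes that go with them, so these orders are a description.

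In KC-like cells of the ND-fed Egr2fl/fl and Lyz2Cre/+.Egr2fl/fl mice Fcgr1 was at 353 (344 to 361) and 348 (339 to 356) CPM. A cluster of the ND-fed Egr2fl/fl mouse led by Ch25h, Mmp13 and Nes (60 cells) had the highest Fcgr1 of that mouse, at 458 CPM (402 to 520), and its interval lay above that of KC-like cells. Interferon-responding-like cells followed on ND at 130 CPM and were the highest on CDA-HFD, at 360 (322 to 401) and 443 (405 to 484) CPM. The order of the lower classes was not settled by counting error, with Ly6Clo monocyte-like (55.2 CPM), Cd209a+ dendritic cell-like (38.2 CPM) and neutrophil-like cells (29.5 CPM) overlapping their neighbours in the ND-fed Egr2fl/fl mouse. On CDA-HFD neutrophil-like cells stood at 11.9 CPM in both mice.

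Fcgr1 has long been known as an interferon gamma-responsive gene, through a STAT-bound element in its promoter, and its promoter is shown for that reason. The 300 bases run from 250 before to 50 after the RefSeq start of transcription (GRCm38.p6, chr3:96293920-96294219, minus strand), and the capitals mark the match to TTCNNNGAA, the core of a gamma interferon activation site, 109 bases before the start.
Fcgr1 promoter: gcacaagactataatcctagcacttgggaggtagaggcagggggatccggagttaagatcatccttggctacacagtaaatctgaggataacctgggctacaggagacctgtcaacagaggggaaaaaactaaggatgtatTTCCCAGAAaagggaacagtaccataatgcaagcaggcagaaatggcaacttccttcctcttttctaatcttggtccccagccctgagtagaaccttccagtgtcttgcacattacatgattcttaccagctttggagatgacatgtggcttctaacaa
Searched on both strands, these letters occurred in 1 of the 8 RefSeq promoters of the 7 genes (Fcgr3 has a pair that overlap) and in 2726 of 32851 mouse promoters of the same length (8.30%). The core GAGGAA, bound by factors of the ETS family such as PU.1, occurred in 5 of the 8, against 28.3% of all promoters. The 5 count the same Fcgr3 site in both of its overlapping promoters. A match is a description of letters, not of binding.

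Fcgr3 was at 889 (875 to 902) and 740 (728 to 752) CPM in KC-like cells on ND, and neutrophil-like cells of the same mice had 901 (815 to 994) and 1038 (969 to 1110) CPM. In the ND-fed Egr2fl/fl mouse the top places, held by neutrophil-like, Ch25h-led (893 CPM) and KC-like cells, did not differ beyond counting error. Neutrophil-like cells were shallow, with a median of 3810 to 4054 counts per cell.

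Fcgr4 was highest in Ly6Clo monocyte-like cells of all 4 mice, the patrolling monocytes, at 836 (776 to 899), 1118 (1029 to 1212), 762 (723 to 803) and 736 (704 to 769) CPM. KC-like cells were next on ND, at 816 (803 to 829) and 709 (697 to 722) CPM, and in the Egr2fl/fl mouse they overlapped the Ly6Clo monocyte-like cells. Ly6Chi monocyte-like cells, the classical monocytes, had 39.2, 45.1, 78.3 and 95.8 CPM. The 2 kinds of monocyte thus stood far apart for Fcgr4 in each mouse, with no overlap of their intervals.

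The inhibitory receptor was ordered differently, with KC-like cells at the bottom. Fcgr2b was at 8.45 (7.19 to 9.88) and 8.19 (6.94 to 9.59) CPM in KC-like cells of the ND-fed mice, the lowest of all classes in both. Ly6Chi monocyte-like cells had 184 and 233 CPM and Cd209a+ dendritic cell-like cells 176 and 178 CPM in the same mice. On CDA-HFD the highest myeloid level was in the cluster led by Thbs1 and Apoc2, at 372 (361 to 384) and 410 (400 to 420) CPM.

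Endothelial cell-like cells reached 50 cells only in the CDA-HFD-fed Lyz2Cre/+.Egr2fl/fl mouse, where 57 cells had 1441 CPM of Fcgr2b (1351 to 1535), above every other class of that mouse. Their defining markers were present, with 8 of 8 raised. On the same cells Fcgr1 was at 56.6, Fcgr3 at 201 and Fcgr4 at 92.4 CPM.

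Fcer1g was highest in Ly6Clo monocyte-like cells of all 4 mice, at 6026, 6822, 5378 and 5312 CPM. KC-like cells had 3777 and 3888 CPM, hLAM-like cells 3311 and 3555 CPM, and neutrophil-like cells 3537 to 3784 CPM. It was lowest in mature dendritic cell-like cells of the CDA-HFD-fed mice, at 979 and 867 CPM. Across classes the chain thus spanned fewer-fold than any of the receptors did.

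Fcgrt, whose product protects IgG and albumin from breakdown, was highest in KC-like cells on ND, at 346 (338 to 355) and 446 (436 to 456) CPM. On CDA-HFD the cluster led by Tmem119, Olfml3 and Pf4 had 117 and 132 CPM, and endothelial cell-like cells had 292 CPM (253 to 336). Neutrophil-like cells were lowest in all 4 mice, at 13.6, 9.75, 9.87 and 15.3 CPM on 6 to 53 counts.

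Fcrls, known best as a microglial gene, was found in few cells. It had counts in 312 of the 15384 cells, and 60.3% and 61.6% of the Fcrls counts of the CDA-HFD-fed mice lay in the Tmem119-led cluster. There it was at 40.1 (36.6 to 43.9) and 35.5 (32.4 to 38.8) CPM, from 80 of 502 and 94 of 609 cells. Proliferating-like cells came near, with 39.8 (32.6 to 48.1) and 31.1 (25.6 to 37.5) CPM, but from 7 of 91 and 10 of 106 cells. In hLAM-like cells 33 of 805 and 28 of 777 cells had a count, at 7.10 and 6.70 CPM. The moKC-like group of the second clustering, described with the balance, held 484 of the 790 and 524 of the 795 Fcrls counts of these mice. It had 43.6 and 38.9 CPM and shares cells with the Tmem119-led cluster. In the same mice a count was found in 0.181% and 0.315% of Ly6Chi monocyte-like cells, from 2 and 3 cells, and in 3 of 912 and 1 of 751 neutrophil-like cells, at 0.133 to 1.01 CPM, and T or NK cell-like cells of the ND-fed Egr2fl/fl mouse had one in 2 of 71. Thinned to equal depth, 7.57% and 8.88% of Tmem119-led and 1.49% and 1.42% of hLAM-like cells had a count. KC-like cells of the ND-fed mice held 1 count in 763 cells and 0 in 833 cells, the latter allowing up to 0.197 CPM.

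**Figure D2:**
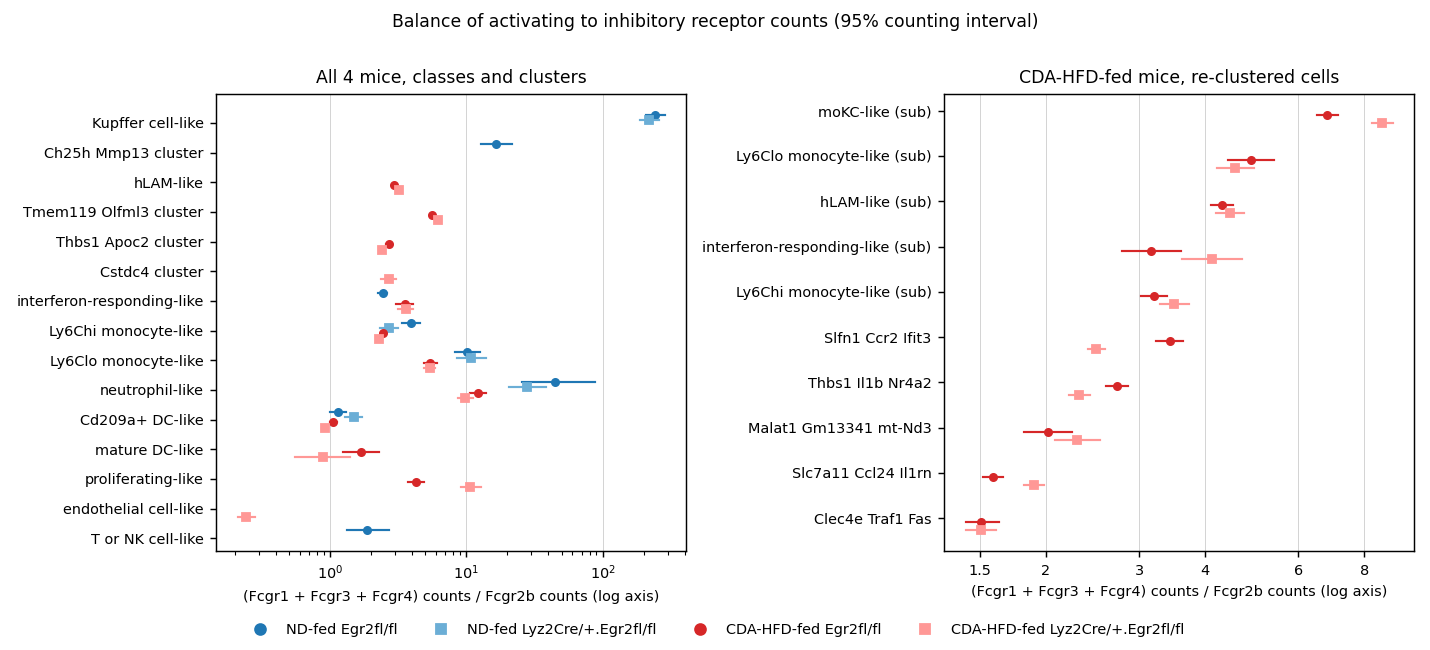
Balance (counts of Fcgr1, Fcgr3 and Fcgr4 divided by counts of Fcgr2b, x axis, log) for each cell class or cluster of each mouse (left) and for the re-clustered groups of the CDA-HFD-fed mice other than the neutrophil-like one (right), with 95% counting intervals as bars. KC-like cells of the ND-fed mice stand at 243 and 220, hLAM-like cells at 2.97 and 3.21, and endothelial cell-like cells at 0.243.

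KC-like cells had by far the highest balance of any class. It was 243 (208 to 286) in the ND-fed Egr2fl/fl and 220 (187 to 259) in the ND-fed Lyz2Cre/+.Egr2fl/fl mouse, resting on 159 and 153 Fcgr2b counts. A small KC-like cluster was led by Mup and Apoa2 genes, which hepatocytes express, and without it the balance was 258 and 219. The Ch25h-led cluster of the ND-fed Egr2fl/fl mouse stood at 16.5 (12.9 to 21.5).

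On CDA-HFD hLAM-like cells had a much lower balance, of 2.97 (2.87 to 3.07) and 3.21 (3.09 to 3.33), and the Tmem119-led cluster one of 5.60 and 6.22. The Thbs1-led cluster, in which the raised markers were the monocyte genes Ccr2 and Plac8, stood at 2.69 and 2.40. The CDA-HFD cells of the monocyte-like, hLAM-like, interferon-responding-like and unnamed clusters, 7843 in all, were clustered again. The new groups thus share cells with those clusters, and 108 cells formed a neutrophil-like group. Cells with 5 of 9 markers of monocyte-derived KCs (moKC-like, led by Cd5l, Cd207 and Clec1b) had the highest balance, 6.81 (6.51 to 7.13) and 8.66 (8.28 to 9.07). The hLAM-like group of this second clustering stood at 4.30 (4.10 to 4.52) and 4.45 (4.19 to 4.74). The lowest were the cells led by Clec4e, Traf1 and Fas, at 1.51 in both mice, and those led by Slc7a11, Ccl24 and Il1rn, at 1.59 and 1.90.

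The monocytes, neutrophils and dendritic cells each kept their place in the order across the 4 mice. Ly6Clo monocyte-like cells had 10.1, 10.8, 5.42 and 5.39, and Ly6Chi monocyte-like cells 3.92, 2.69, 2.45 and 2.30. Neutrophil-like cells had 44.8 (25.5 to 87.3), 27.7 (20.5 to 38.4), 12.2 (10.7 to 13.9) and 9.83 (8.74 to 11.1), where the first value rests on 12 Fcgr2b counts. Much of the Ly6Chi monocyte-like and neutrophil-like classes on CDA-HFD lay in clusters with few cells on ND. Within the Retnlg-led neutrophil-like cluster, which both diets filled, the balance was 73.3 (35.3 to 183), 32.5 (23.0 to 47.5), 33.0 (24.5 to 45.6) and 21.8 (16.9 to 28.6), and within the Ly6Chi monocyte-like cluster that both filled it was 4.28, 2.72, 3.13 and 3.12. Cd209a+ dendritic cell-like cells stood near 1, at 1.15, 1.49, 1.06 and 0.920, and endothelial cell-like cells were far below it, at 0.243 (0.210 to 0.281).

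The same contrast was found in single cells. Each cell was thinned at random to 4243 counts, the 10th percentile of all cells, to make depths equal, and 1539 shallower cells were left out. Of KC-like cells of the ND-fed mice, 96.0% and 96.4% had a count of at least 1 activating receptor and none of Fcgr2b, while 3.09% and 2.61% had both. All 3 activating receptors were found together in 58.5% and 54.0% of them.

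Of hLAM-like cells on CDA-HFD, 40.1% and 40.7% had activating receptors alone, 40.9% and 38.2% had both kinds, and 8.32% and 10.2% had Fcgr2b alone. moKC-like cells, from the second clustering, had activating receptors alone in 57.1% and 63.5% and both kinds in 40.6% and 34.4%. The hLAM-like group of that clustering lay nearer to them. It had activating receptors alone in 53.4% and 50.2%, both kinds in 38.2% and 34.7%, and Fcgr2b alone in 2.81% and 5.18%. Of the 51 endothelial cell-like cells 43.1% had Fcgr2b alone. About as many Cd209a+ dendritic cell-like cells on CDA-HFD had none of the 4 receptors as had any, with 49.0% and 49.3% without.

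A low share of cells with a count can be background from free RNA. Fcgr2b was counted in 3.23% of thinned KC-like cells of the ND-fed Egr2fl/fl mouse against 9.52% (6 of 63) of its T or NK cell-like cells, which should lack it, with median depths of 25416 and 7359 counts before thinning. The share in KC-like cells lay below that of the T or NK cell-like cells, and it is read neither as expression nor as background. Those T or NK cell-like cells held 51 Fcgr2b counts in 71 cells (70.4 CPM), more per cell than the 159 counts in 763 KC-like cells (8.45 CPM), so they give no clean background level for Fcgr2b. How much of the Fcgr2b count of KC-like cells is free RNA was not tested, and their balance is given on the counts as they stand. Neutrophil-like cells of that mouse also lay below the T or NK share, at 7.41% (2 of 27). Fcgr1 and Fcgr4 were each counted in 1.59% of those T or NK cell-like cells, far below the 69.5% and 88.7% of KC-like cells. Before thinning, 13.8% of KC-like cells and 76.5% of hLAM-like cells of the Egr2fl/fl mice had a count of Fcgr2b, against 3.23% and 49.2% after it.

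**Figure D3:**
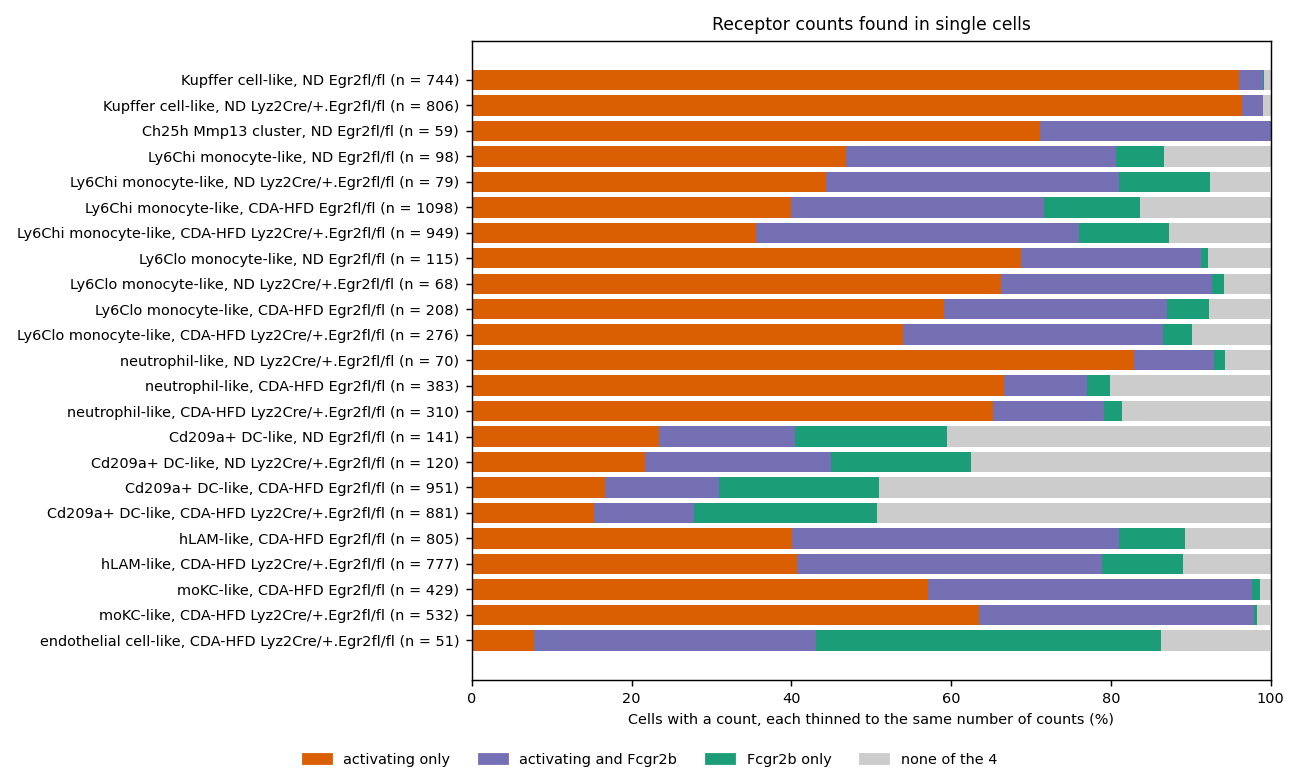
Share of cells (x axis, %) with counts of activating receptors alone, of both kinds, of Fcgr2b alone or of none of the 4, after each cell was thinned to 4243 counts, for selected classes of each mouse with at least 50 cells deep enough (number in parentheses, moKC-like cells from the second clustering). Activating receptors alone fill 96.0% and 96.4% of the KC-like bars and 40.1% and 40.7% of the hLAM-like bars.

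To set the macrophages of the MASH liver beside the resident cells they are found in place of, macrophages of each CDA-HFD-fed mouse were compared with KC-like cells of the ND-fed mouse of the same genotype. This comparison spans 2 cell types as well as 2 diets, which cannot be told apart in it. Fcgr2b and Fcrls were higher and Fcgr4 and Fcgrt lower in both kinds of macrophage, and Fcer1g stayed close to level.

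In hLAM-like cells Fcgr2b was at 236 and 231 CPM, 27.9 (23.9 to 32.9) and 28.2 (24.0 to 33.3) times the level of KC-like cells, with no free RNA subtracted from either. Fcgr4 was at 163 and 178 CPM, 0.20 (0.192 to 0.208) and 0.251 (0.241 to 0.261) times the KC-like level. Fcgr3 was at 387 and 327 CPM, with ratios of 0.436 and 0.442, and Fcgrt at 45.9 and 48.2 CPM, with ratios of 0.133 and 0.108. Fcgr1 was at 150 CPM and a ratio of 0.426 (0.407 to 0.445) in the Egr2fl/fl pair against 234 CPM and 0.673 (0.647 to 0.701) in the Lyz2Cre/+.Egr2fl/fl pair. Fcer1g had ratios of 0.877 (0.867 to 0.886) and 0.914 (0.905 to 0.924). Between the pairs of mice the intervals did not overlap for Fcgr1, Fcgr4, Fcgrt or Fcer1g.

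Past the 1.5-fold mark, 2 members were higher and 4 lower in hLAM-like than in KC-like cells of the Egr2fl/fl mice, where 17.0% and 29.0% of genes did so. In the Lyz2Cre/+.Egr2fl/fl mice 2 were higher and 3 lower, beside 15.9% and 29.4%. The 2 higher members were Fcgr2b and Fcrls, and Fcgr1 was the lower member that did not pass in the Lyz2Cre/+.Egr2fl/fl mice.

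In moKC-like cells Fcgr1 was close to the KC-like level, Fcgr4 was lower and Fcgr2b higher. Fcgr1 was at 304 and 337 CPM, 0.861 (0.826 to 0.898) and 0.969 (0.932 to 1.01) times the KC-like level, and Fcgr3 at 616 and 636 CPM, with ratios of 0.693 and 0.859. Fcgr2b was at 192 and 155 CPM, 22.8 (19.4 to 26.9) and 18.9 (16.1 to 22.5) times the KC-like level, with no free RNA subtracted from either. The hLAM-like group of the second clustering had Fcgr2b ratios of 22.0 (18.7 to 26.0) and 21.8 (18.4 to 25.9). In moKC-like cells Fcgr4 was at 391 and 369 CPM, with ratios of 0.480 and 0.521. Fcer1g was level, at 1.01 and 1.03. In the Egr2fl/fl mice 2 members were higher and 2 lower than in KC-like cells, beside 14.1% and 20.5% of genes, and in the Lyz2Cre/+.Egr2fl/fl mice 2 and 2, beside 12.7% and 19.5%. The 2 higher members were Fcgr2b and Fcrls, and the 2 lower were Fcgr4 and Fcgrt.

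**Figure D4:**
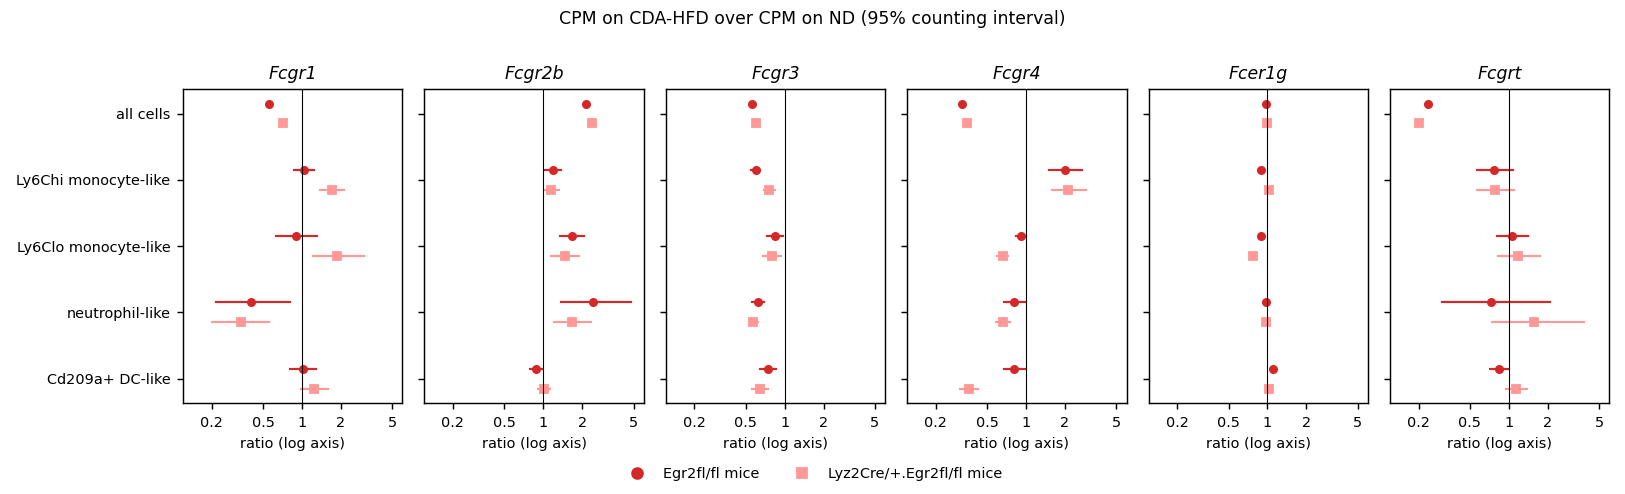
Ratio of CPM on CDA-HFD to CPM on ND (x axis, log) for all cells and for the 4 classes with at least 50 cells in every mouse, in Egr2fl/fl and Lyz2Cre/+.Egr2fl/fl mice, with 95% counting intervals as bars and a line at 1. The ratio of Fcgr4 is 0.319 and 0.351 over all cells but 2.00 and 2.12 in Ly6Chi monocyte-like cells.

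Within a class some diet differences ran against the totals. This comparison asks whether a level differs between diets in the same kind of cell, and 4 classes had enough cells in all 4 mice. In Ly6Chi monocyte-like cells Fcgr4 was higher on CDA-HFD, not lower, while Fcgr3 was lower in all 4 classes of both genotypes, with intervals below 1.

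In Ly6Chi monocyte-like cells Fcgr4 had a ratio of 2.00 (1.5 to 2.73) in Egr2fl/fl and 2.12 (1.58 to 2.93) in Lyz2Cre/+.Egr2fl/fl mice, and Fcgr3 one of 0.598 (0.553 to 0.648) and 0.759 (0.691 to 0.834). The class held a pair of clusters, of which one had 8 and 6 cells on ND against 467 and 447 on CDA-HFD. Within the cluster that both diets filled (90 and 73 cells on ND against 636 and 506 on CDA-HFD), the Fcgr3 ratio was 0.773 and 0.975 and that of Fcgr4 2.00 (1.42 to 2.90) and 1.33 (0.978 to 1.85). Fcgr1 had a ratio of 1.04 (0.868 to 1.25) in the Egr2fl/fl pair and 1.70 (1.37 to 2.13) in the Lyz2Cre/+.Egr2fl/fl pair. In each pair 2 of 6 members passed 1.5-fold, beside 34.2% and 33.0% of genes, which is close to the background.

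In Ly6Clo monocyte-like cells Fcgr2b was at 124 and 144 CPM on ND and 206 and 211 CPM on CDA-HFD, with ratios of 1.66 (1.34 to 2.08) and 1.46 (1.15 to 1.89). Fcgr4 had ratios of 0.912 (0.833 to 0.999) and 0.658 (0.600 to 0.724), and Fcgr1 of 0.904 (0.631 to 1.31) and 1.86 (1.21 to 3.0). One member passed 1.5-fold in the Egr2fl/fl pair and 2 in the other, of 6 each, beside 22.8% and 25.4% of genes.

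In neutrophil-like cells Fcgr3 was at 901 and 1038 CPM on ND and 560 and 590 CPM on CDA-HFD, with ratios of 0.621 (0.558 to 0.693) and 0.569 (0.525 to 0.617). Fcgr2b was at 27.2 and 53.7 CPM on ND and 66.3 and 89.4 CPM on CDA-HFD, with ratios of 2.43 (1.37 to 4.77) and 1.67 (1.21 to 2.34). The 27.2 CPM rested on 12 counts and lay below the 70.4 CPM of T or NK cell-like cells of that mouse. No free RNA was subtracted. In each pair 2 of 4 members passed the fold, beside 43.3% and 32.3% of genes. Most ND neutrophil-like cells (102 and 175) lay in a cluster led by Retnlg and Lrg1 and most CDA-HFD ones (587 and 445) in a cluster led by Csf1 and Il1f9. Within the Retnlg-led cluster the Fcgr3 ratio was 0.844 (0.749 to 0.952) and 0.727 (0.661 to 0.800), and that of Fcgr2b 1.85 (0.827 to 4.87) and 1.12 (0.720 to 1.76), the former on 7 ND counts.

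In Cd209a+ dendritic cell-like cells Fcgr2b had ratios of 0.879 and 1.01 and Fcgr3 of 0.740 (0.645 to 0.853) and 0.646 (0.559 to 0.748). Fcgr4 had 0.809 (0.672 to 0.981) in Egr2fl/fl and 0.359 (0.306 to 0.424) in Lyz2Cre/+.Egr2fl/fl mice, the latter against an ND level that was itself high. Past 1.5-fold were 0 of 6 and 2 of 6 members, beside 24.3% and 22.6% of genes.

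The comparison of genotypes asks what goes with the loss of Egr2 in Lyz2-expressing cells. On ND Fcgrt was at 239 against 340 CPM over all cells, a ratio of 1.43 (1.38 to 1.47) of the Lyz2Cre/+.Egr2fl/fl to the Egr2fl/fl mouse. The other 5 members with enough counts had all-cell ratios from 0.924 to 1.06. On CDA-HFD Fcgr1 had an all-cell ratio of 1.35 (1.32 to 1.38) and Fcgrt one of 1.22 (1.17 to 1.26). Fcgr1 was higher in the Lyz2Cre/+.Egr2fl/fl mouse in all 10 re-clustered groups that had at least 50 cells in both mice, with the highest ratio in the cells led by Slc7a11. In each case 1 mouse stands against 1 mouse.

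In KC-like cells on ND the ratio of the Lyz2Cre/+.Egr2fl/fl to the Egr2fl/fl mouse was 0.986 (0.953 to 1.02) for Fcgr1, 0.833 (0.814 to 0.852) for Fcgr3, 0.869 (0.849 to 0.890) for Fcgr4 and 1.29 (1.25 to 1.33) for Fcgrt. None of 6 members passed 1.5-fold, beside 6.10% of genes. In Cd209a+ dendritic cell-like cells on ND Fcgr4 was at 58.1 against 106 CPM, a ratio of 1.82 (1.46 to 2.28), as the 1 of 6 members past the fold, beside 12.6% of genes. This call was lost with variable genes chosen by vst and with genes of at least 500 counts. On CDA-HFD the same cells had 47.0 against 38.0 CPM of Fcgr4, a ratio of 0.808 (0.721 to 0.905), so the direction did not hold in the other pair of mice.

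In hLAM-like cells on CDA-HFD Fcgr1 was at 150 CPM in the Egr2fl/fl and 234 CPM in the Lyz2Cre/+.Egr2fl/fl mouse, a ratio of 1.56 (1.49 to 1.64). It was the 1 of 7 members past 1.5-fold, beside 6.41% of genes. The other members ran from 0.845 (Fcgr3) to 1.09 (Fcgr4). After thinning, 33.2% against 44.1% of these cells had an Fcgr1 count. Fcgr2b did not follow, with a ratio of 0.976 (0.934 to 1.02), so that the ratio of Fcgr1 to Fcgr2b counts was 0.635 against 1.02. In the hLAM-like group of the second clustering, with 8 of 10 markers raised, the Fcgr1 ratio was 1.29 (1.21 to 1.39) and 0 of 7 members passed the fold, beside 8.27% of genes. The balance of that group was 4.30 and 4.45.

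Other classes gave Fcgr1 ratios of 1.64 (1.28 to 2.12) in Ly6Clo monocyte-like cells, where it was the 1 of 6 members past the fold beside 10.8% of genes, and of 1.31 (1.23 to 1.40) in Ly6Chi monocyte-like cells, where 0 of 6 passed beside 5.32%. In the Ly6Clo monocyte-like group of the second clustering the Fcgr1 ratio was 1.43 (1.15 to 1.79), and 0 of 6 members passed beside 10.9% of genes. In proliferating-like cells Fcgr2b was at 99.4 against 45.8 CPM, a ratio of 0.461 (0.377 to 0.563), the 1 of 7 past the fold beside 11.9% of genes, in 91 and 106 cells. The balance of that class was 4.25 (3.72 to 4.88) against 10.7 (9.13 to 12.7). Fcgr1 was not higher in every class. In neutrophil-like cells it had a ratio of 0.997 (0.639 to 1.55) at 11.9 CPM in both mice, near the 8.28 CPM of T or NK cell-like cells. In mature dendritic cell-like cells it was at 21.8 against 6.69 CPM, a ratio of 0.308 (0.130 to 0.651) on 36 and 9 counts.

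**Figure D5:**
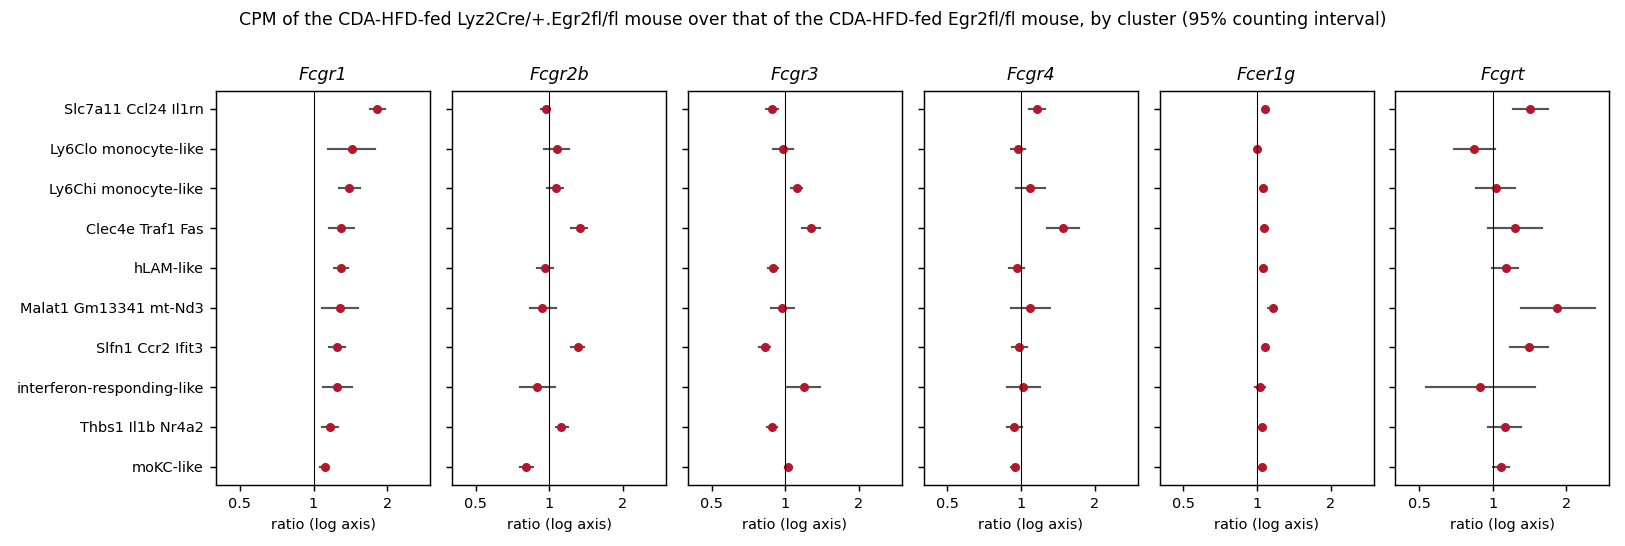
Ratio of CPM in the CDA-HFD-fed Lyz2Cre/+.Egr2fl/fl mouse to CPM in the CDA-HFD-fed Egr2fl/fl mouse (x axis, log) in 10 re-clustered groups (rows, ordered by the Fcgr1 ratio), with 95% counting intervals as bars and a line at 1. All 10 Fcgr1 points lie to the right of 1, from 1.11 to 1.82, while Fcgr3 lies to the right in 4 of 10.

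Among the 10 re-clustered groups with at least 50 cells in both CDA-HFD-fed mice, the Fcgr1 ratio was above 1 in 10, with the whole interval above 1 in 10, a median of 1.29 and a range of 1.11 to 1.82. Of the 2457 genes with at least 100 counts in each of these groups, 3.99% were above 1 in all 10, and 0.692% had the whole interval above 1 in all 10. The groups share the same pair of mice and so are no replicates of each other. The highest ratio was in the cells led by Slc7a11, Ccl24 and Il1rn, where Fcgr1 was at 114 against 209 CPM, a ratio of 1.82 (1.70 to 1.96), the 1 of 6 members past 1.5-fold beside 7.51% of genes. The lowest was in moKC-like cells, at 304 against 337 CPM and 1.11 (1.06 to 1.16).

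The median gene lay at 1.02 to 1.04 in these groups. Fcer1g was above 1 in 10 of 10, beside the 3.99% of genes, at 1.00 to 1.16, with the whole interval above 1 in 8. Fcgr3 was higher in 4 of 10, Fcgr2b in 5, Fcgr4 in 5 and Fcgrt in 8, with medians of 0.976, 1.01, 1.00 and 1.12. Fcgrt passed 1.5-fold in the cells led by Malat1, at 1.84 (1.30 to 2.63), the 1 of 6 members to do so, beside 11.7% of genes. That group had no marker raised and a median of 5448.5 counts per cell. The inhibitory receptor went both ways beyond counting error. It was lower in moKC-like cells (0.805, 0.757 to 0.855) and higher in 3 groups, foremost the cells led by Clec4e (1.33, 1.23 to 1.43) and by Slfn1 (1.31, 1.23 to 1.39). The balance of moKC-like cells was accordingly 6.81 against 8.66, and that of the Slfn1-led cells 3.43 against 2.49.

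Other genes of the pathway were taken from lists of relatives, adaptors, signalling proteins and receptors that share the Fcer1g chain, and were counted over all cells. Over all genes 10.2% were higher and 21.2% lower than 1.5-fold on CDA-HFD in Egr2fl/fl mice, and 11.2% and 21.8% in Lyz2Cre/+.Egr2fl/fl mice. Of 21 genes of activating signalling, 3 were higher and 3 lower in both genotypes, which is near that background, with list medians of 0.907 and 0.931 beside the 0.909 and 0.904 of all genes. Lat2, an adaptor of Fc receptor signalling, had ratios of 2.63 and 3.05, and Src, a tyrosine kinase, 0.105 and 0.125. Of 14 genes of inhibitory signalling, 1 and 2 were higher and 2 and 2 lower, also near it. Lilrb4a, an inhibitory receptor, had ratios of 1.68 and 1.60 and Inppl1, which encodes the phosphatase Ship2, 0.331 and 0.392. In the Lyz2Cre/+.Egr2fl/fl pair the largest ratio was that of Cblb, a ubiquitin ligase, at 1.86 (1.61 to 2.16), and the smallest that of Dok2, an adaptor that dampens tyrosine kinase signals, at 0.332 (0.313 to 0.352).

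Of 7 receptors that also signal through the Fcer1g chain, 2 were higher and 4 lower on CDA-HFD in both genotypes, beside the 10.2% and 21.2% of all genes in Egr2fl/fl and the 11.2% and 21.8% in Lyz2Cre/+.Egr2fl/fl mice. Clec4e, the receptor Mincle, had ratios of 7.30 (6.89 to 7.73) and 9.20 (8.57 to 9.89), and its partner Clec4d 6.75 and 3.92. Ncr1, an activating receptor of NK cells, had 0.0554 (0.0399 to 0.0754) and 0.158 (0.109 to 0.226), and Lilra5 0.0770 and 0.0891. Fcer1g itself had ratios of 0.977 and 0.987 in the same cells. Between genotypes 1 of 7 of these receptors was higher and 1 lower on ND, beside 4.76% and 3.26% of all genes, and 0 of 6 passed the fold on CDA-HFD, beside 3.42% higher and 1.77% lower.

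Of the relatives with enough counts, 0 of 6 and 1 of 8 were higher and 5 and 4 lower on CDA-HFD, most of them at under 10 CPM, beside 10.2% and 11.2% of all genes higher and 21.2% and 21.8% lower. The 1 higher was Fcrlb, an Fc receptor-like gene, at 0.0718 against 1.13 CPM, a ratio of 15.8 (4.25 to 132). Fcmr, a B cell gene for the IgM receptor, was at 3.59 and 4.13 CPM on ND and 0.469 and 0.799 CPM on CDA-HFD. Of 4 adaptor and light chain genes, 0 were higher and 2 lower in both genotypes (Hcst and Cd247), beside the same shares of all genes.

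Between genotypes on ND 0 of 4 adaptor, 0 of 21 activating and 0 of 14 inhibitory signalling genes passed 1.5-fold, beside 8.02% of all genes. On CDA-HFD 1 of 21 activating (Malt1, 0.665) and 1 of 14 inhibitory signalling genes (Dok2, 0.630) did, both lower in the Lyz2Cre/+.Egr2fl/fl mouse, beside 5.19% of all genes. Malt1, a signalling protease, stood at 105 against 47.2 CPM in the Slc7a11-led cells, a ratio of 0.450 (0.404 to 0.50), in the same cells in which Fcgr1 was higher. Dok2 stood at 83.4 against 46.1 CPM in hLAM-like cells, a ratio of 0.552 (0.506 to 0.603). Of the relatives 1 of 6 was higher and 1 lower on ND, where 4.76% of all genes were higher and 3.26% lower, and 4 of 8 were higher and 0 lower on CDA-HFD, where 3.42% of all genes were higher. The 4 were all at under 4 CPM.

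The genes whose pattern was most like each member were found over 35 sums of cells by class and mouse, among 11841 genes, by the Pearson correlation of log2(CPM + 1). These sums share mice and classes, so a correlation is a description. By Spearman correlation only 7 of the 21 genes named here were again among the nearest 3, namely Rrbp1, Ccr2, Lrrc25, Hacd4, Pik3ap1, Fyb and Zbtb20, and 0 of the 3 of Fcrls. Fcgr3 went most closely with Lrrc25 (0.938), Hacd4 (0.921) and Pilra (0.888), and Fcer1g with Itgal (0.936), Fyb (0.915) and Lyn (0.907). Fcgr1 went with Asah1, Capza2 and Rrbp1 (0.915 to 0.912), and Fcgr4 with Lair1, Pik3ap1 and Cd300c2 (0.867 to 0.858). Fcgr2b had lower values, with Ccr2 (0.827), the chemokine receptor of classical monocytes, ahead of Mef2c (0.787) and Susd3 (0.742). Fcgrt went with Wwc2, Slc29a1 and Zbtb20 (0.857 to 0.841), and Fcrls with Gpnmb (0.766), Syngr1 (0.749) and Tk1 (0.700).

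Among themselves the members fell into a group and several outliers. Fcgr3 correlated with Fcer1g at 0.806 and with Fcgr4 at 0.735, and Fcgr4 with Fcer1g at 0.784. Fcgr1 had values of 0.430 to 0.521 with those 3 genes. Fcgr2b stood apart, at 0.0138 with Fcgr3, -0.0188 with Fcgr4 and 0.215 with Fcgr1.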

How the data were processed

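The data were single-cell libraries of sorted CD11b+ liver cells from 4 mice, made on the BD Rhapsody system with TAS-Seq amplification. The deposited mRNA values were raw counts per gene and cell, which the authors made by mapping to the GRCm38 reference, keeping barcodes above an inflection point and assigning them to mice from the hashtag counts. The authors had named 1392 of 16786 barcodes as doublets, and 15394 were given to a mouse. The deposited hashtag table also held counts, of which 7 columns belonging to none of these mice were not used. The values of all 7 members went down to 1 count.

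Cells with over 25% mitochondrial counts were removed, which left 15384. They were clustered in Seurat 5.3.0 (R 4.3.3) with the settings of the study (57 components at resolution 1.0, and 95 components for the cells clustered again), except that the 7 members were left out of the variable genes. The study used Seurat 4.1.1 in R 4.2.1. A marker counted as raised if it had 2 times the CPM of the other cells and a count in 20% of the cluster. A cluster was called by the list that gave most of its 10 leading genes, where 3 or more of that list were raised and either 2 were leading genes or the raised ones made up at least 50% of it. Classes with at least 50 cells in a mouse were summed. The fold of a gene was counted among genes with at least 100 counts over both mice. Scrublet, run in scanpy 1.11.5, marked 58 cells (0.377%) at its own threshold among the cells left after the hashtag doublets were removed. These were kept, and the 1276 cells (8.29%) with the highest scores were left out only as an alternative. The ratios and thinning were tested on simulated data. Motifs and positions came from GENCODE and RefSeq tables of GRCm38. TMM factors came from edgeR 4.0.16. The text names all 7 members, at most 4 genes of each pathway list (from the largest and smallest ratios in a comparison over all cells, among genes with at least 100 counts), and the 3 genes most correlated with each member. The members, lists and markers were chosen with earlier results of these data known.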

Additional observations from a re-analysis of the deposited data

Results flagged for a closer look

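Fcrls in Cd209a+ dendritic cell-like cells moved in opposite directions with diet in the pair of genotypes. It was at 0 CPM in the ND-fed Egr2fl/fl mouse and 3.51 CPM in the CDA-HFD-fed Egr2fl/fl mouse, but at 2.54 CPM in the ND-fed and 0.0714 CPM in the CDA-HFD-fed Lyz2Cre/+.Egr2fl/fl mouse. The difference was not tested, since each group is 1 mouse. The 3.51 CPM came from 53 counts in 4 of 962 cells, 40 of them in 1 cell, the 2.54 CPM from 5 counts in 1 cell, and the 0.0714 CPM from 1 count.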

How the results depend on the processing

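No paired analysis was possible because each group is 1 mouse and the labels number no replicates. Of 141 values recomputed under alternatives for 18 results, 98 stayed within their limits (counting interval, or 1.5 times a count) and 43 did not, for causes that were not tested except where the alternative itself sets the count. Over all cells the number of members past 1.5-fold left its limits only on ND between genotypes, from 0 to 1 with genes of at least 1 count admitted. At a fold of 2 some members no longer passed for diet, a change within the limits. They were Fcgr1 and Fcgr3 in Egr2fl/fl and Fcgr3 in Lyz2Cre/+.Egr2fl/fl mice. Summed over 6 named classes, the count was 5 for diet in Egr2fl/fl, 8 for diet in Lyz2Cre/+.Egr2fl/fl, 1 for genotype on ND and 2 for genotype on CDA-HFD. In that order it became 10, 14, 6 and 7 with genes of at least 1 count, and 1, 2, 0 and 0 at a fold of 2. For diet in Egr2fl/fl it was 3 with genes of at least 500 counts, 10 at resolution 0.5 and 3 with TMM factors. For genotype on ND it was 0 with at least 500 counts, 2 at resolution 0.5 and 0 with variable genes chosen by vst. For genotype on CDA-HFD it was 1 with at least 500 counts, 0 at resolution 0.5, 1 with the members among the variable genes and 1 with cells of at least 90% own hashtag counts.

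The balance of KC-like cells (243 and 220) was 206 with vst genes, 162 with a gate on each cell and 186 as a mean of per-cell CPM in Egr2fl/fl, 317 and 274 with cells of at least 90% own hashtag counts, and 261 in Lyz2Cre/+.Egr2fl/fl without the cells Scrublet scored highest. That of hLAM-like cells (2.97 and 3.21) was 3.90 and 4.46 at resolution 0.5, 2.5 and 2.35 with vst genes, 3.43 and 4.01 with the gate, 3.12 and 3.09 by hashtag share, and 2.46 and 2.72 as a mean per cell. It was 3.08 in Egr2fl/fl without high Scrublet scores, and in Lyz2Cre/+.Egr2fl/fl 3.38 with members kept and 3.08 at resolution 2.0. KC-like stayed above hLAM-like cells in all of these. Without thinning, the shares were 13.8% (Fcgr2b, KC-like), 76.5% (Fcgr2b, hLAM-like) and 60.6% and 70.7% (Fcgr1, hLAM-like, Egr2fl/fl and Lyz2Cre/+.Egr2fl/fl). By Spearman correlation 7 of the 21 genes most like a member were named again. Leaving out the Mup-led KC-like cluster, which gave a balance of 258 and 219, was chosen after seeing the data. Few counts lie behind Fcgr1 in neutrophil-like cells on CDA-HFD (47 and 41) and Fcgr2b in KC-like cells on ND (159 and 153).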
